A study of Homo sapiens with 12 samples.

Results

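The genes described here are 44 genes of mitosis and chromosome segregation, chosen by name from 19775 genes that have a probe set of their own on the Affymetrix HG-U133 Plus 2.0 array. For each gene the probe set with the highest mean over the 12 arrays was used. The arrays measured total RNA of 2 established lines of human breast cancer, Hs578T and BT-20, after 24 h with 200 nM of an oligonucleotide and the liposomal transfection reagent DOTAP. In each line, M was a double-stranded stretch of exon 1 of CDH13 with methylated CpG cytosines and U the same stretch unmethylated, with 2 arrays each, called biological replicates and numbered set 1 and set 2. ODN2006, a single-stranded CpG oligodeoxynucleotide, and CTL, its GpC control, had 1 array each per line and no set number, so each single array of these stands for 1 culture. All cells had received a DNA oligonucleotide and DOTAP, and no array of untreated cells was used here. The array names place set 1 in one array batch and set 2 and the ODN arrays in another.

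Mitosis separates the copied chromosomes into daughter cells. Cyclins and CDK1 start it, kinetochores built on centromeres attach each chromosome to the spindle, the spindle checkpoint holds the cell until all are attached, and the anaphase-promoting complex then marks securin and the cyclins for destruction so that the chromatids part. Most of these genes are transcribed late in the cell cycle, which is why their mRNA expression is widely read as a sign of dividing cells. In bulk RNA a smaller share of dividing cells and less mRNA per dividing cell cannot be told apart.

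The oligonucleotides are shown because they define the groups. In the first line the capitals mark the cytosines that were methylated in M and unmethylated in U (upper strand), and in the others they mark the CpG sites of ODN2006 and the GpC sites that replaced them in CTL.
M and U: tCggatCgccCggcaCgggcagggtgaggg
ODN2006: tCGtCGttttgtCGttttgtCGtt
CTL: tGCtGCttttgtGCttttgtGCtt
M and U have 30 bases and 4 CpG sites per strand, ODN2006 has 24 bases and 4 CpG sites, and CTL has 24 bases and 0 CpG sites.

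Values are log2 GCRMA values, so a difference of 1 is a doubling. The array medians lay between 3.01 and 3.09. The median of 13 mesenchymal marker genes was 14.29 to 14.58 in Hs578T arrays and 2.85 to 3.76 in BT-20 arrays, and that of 13 epithelial markers was 2.71 to 3.45 in Hs578T arrays and 10.87 to 11.33 in BT-20 arrays. The 3′ minus 5′ difference of the ACTB control probe sets, a sign of RNA quality, was 0.69 to 0.94. A gene was tested if it reached 5 in at least 2 arrays of a comparison, and 43 of the 44 genes did in every comparison. INCENP, the scaffold of the chromosomal passenger complex, lay between 3.50 and 5.52 and was not tested.

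**Figure D1:**
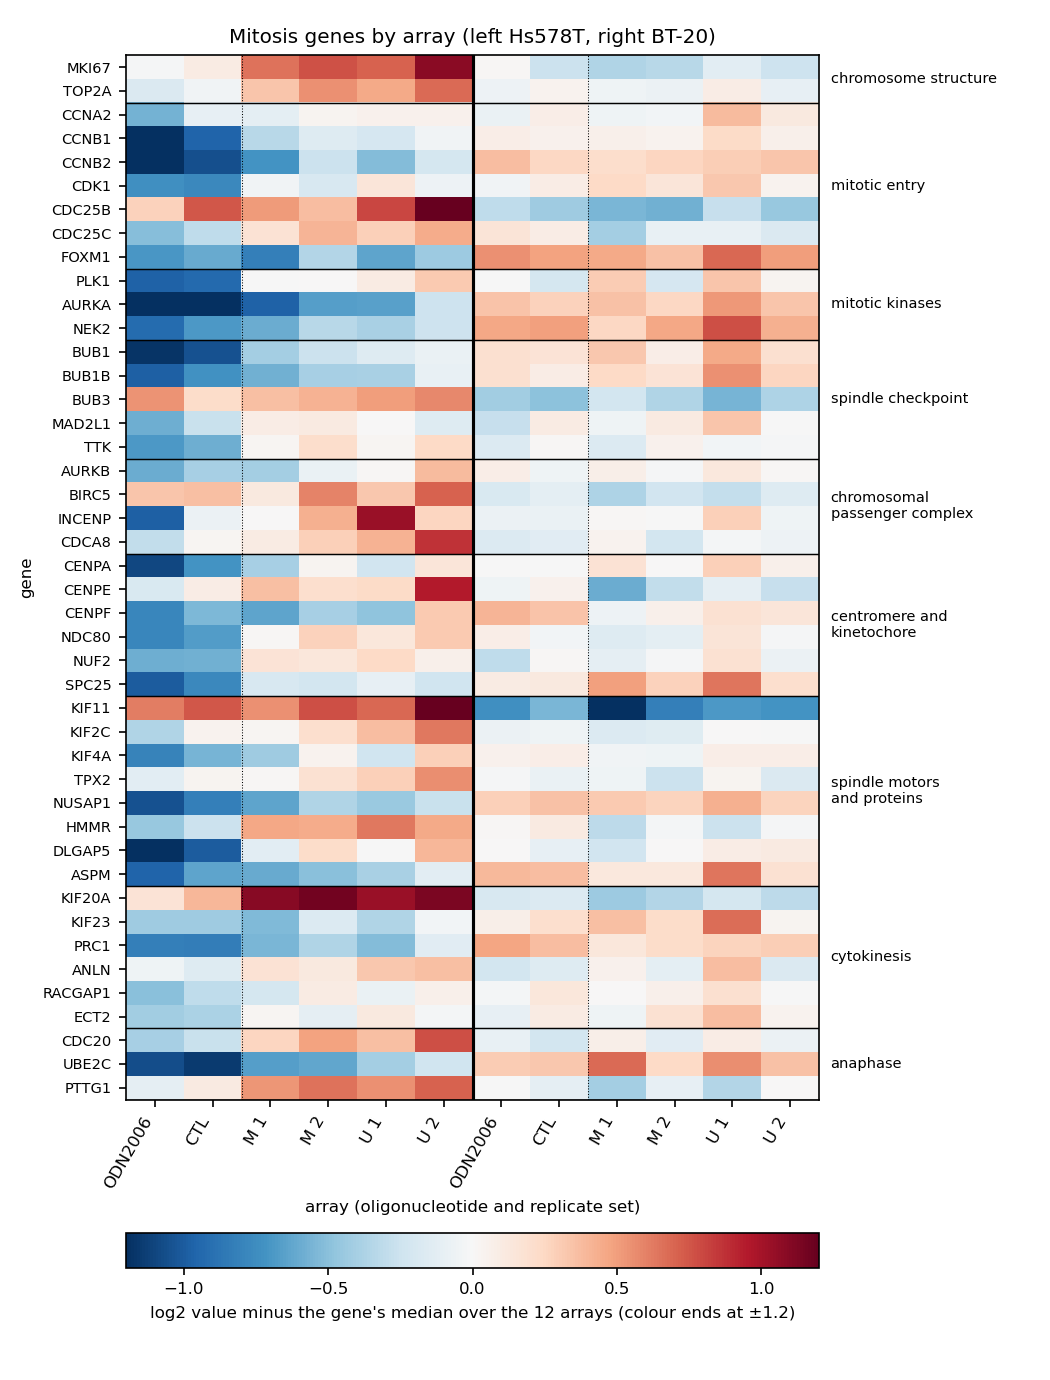
Each row is 1 of the 44 genes, grouped by role, and each column 1 of the 12 arrays. The colour is the log2 value minus the median of that gene over the 12 arrays, and the ODN2006 and CTL columns of Hs578T are blue for most genes while those of BT-20 are not.

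The median value of the 44 genes in Hs578T was 10.17 with ODN2006 and 10.42 with CTL, against 10.54 and 10.68 with M and 10.76 and 11.22 with U, set 1 before set 2. In BT-20 it was 10.99 with ODN2006 and 10.95 with CTL, against 10.89 and 10.90 with M and 11.13 and 11.00 with U. The Hs578T arrays were therefore lowest with the ODNs, whereas the BT-20 ODN arrays lay among the M and U arrays.

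Which genes responded to the methylation of the CDH13 stretch is the question the series design names. None of the 43 tested genes passed the test between M and U, while most had a value below 0. In Hs578T, 40 of 43 had a change below 0, with a median of -0.15, while 52.6% of all 10410 tested genes were below 0. In BT-20 the figures were 40 of 43 and -0.11, while 51.4% of all genes were below 0. Both medians were smaller than the SD of the median of these genes between replicate arrays (0.18), which was pooled over both lines. With INCENP included, set 1 and set 2 of Hs578T had medians of 10.535 and 10.675 with M and 10.759 and 11.217 with U. Those of BT-20 had 10.889 and 10.896 with M and 11.132 and 10.995 with U. Replicates lay closer in BT-20, so the pooled SD does not measure the spread of that line. It also holds the difference between sets, which M and U arrays of a line partly shared. The genes above 0 were MAD2L1, KIF20A and NUF2 in Hs578T and BUB3, CDK1 and UBE2C in BT-20. With limma and Benjamini-Hochberg adjustment 0 of the 43 were called in Hs578T alone, in BT-20 alone, for the joined lines or for the interaction of line and oligonucleotide, where 0% of all genes were called in each. At an unadjusted p under 0.05 there were 3, 0, 2 and 0 of the 43 genes and 680, 174, 543 and 258 of all genes in those 4 comparisons. With any 1 array left out the medians ran from -0.28 to -0.04 in Hs578T and from -0.19 to -0.05 in BT-20.

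CDC25B, a phosphatase that activates CDK1, had 10.49 and 10.35 with M and 10.78 and 11.21 with U in Hs578T. KIF2C, a kinesin that shortens microtubules at centromeres, had 10.40 and 10.57 with M and 10.74 and 11.00 with U. AURKB, the kinase of the passenger complex, had 9.55 and 9.87 with M and 9.97 and 10.33 with U. For all 3 genes both M arrays were below both U arrays of Hs578T. The changes were -0.57 (SE 0.17), -0.38 (SE 0.14) and -0.44 (SE 0.18), with adjusted p between 0.68 and 0.75 by limma. MAD2L1, which encodes a spindle checkpoint protein, had the opposite sign, with 12.42 and 12.43 with M and 12.32 and 12.17 with U (change 0.18, SE 0.16, adjusted p = 0.93 by limma).

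In BT-20, CCNA2 (cyclin A2) was at 10.46 and 10.49 with M and at 10.90 and 10.63 with U. ASPM, a spindle pole protein, was at 11.14 and 11.13 with M and at 11.66 and 11.20 with U. BUB3, another checkpoint protein, was at 11.46 and 11.32 with M and at 11.13 and 11.31 with U. The M and U arrays did not overlap for these genes, but BUB3 parted by only 0.01 in set 2 and the U array of set 1 carried most of the other differences. The changes were -0.29 (SE 0.14), -0.29 (SE 0.19) and 0.17 (SE 0.13), all with an adjusted p of 1.00 by limma.

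Taken set by set, the number of genes lower with M was 40 and 37 of 43 in set 1 and set 2 of Hs578T and 40 and 30 of 43 in set 1 and set 2 of BT-20. The medians were -0.15, -0.13, -0.17 and -0.06, and those of all genes lay between -0.03 and 0.01. M was below U in all 4 pairs for 25 of the 43 genes, where 12.2% of all tested genes were. A further 12 genes were lower in 3 pairs, 5 in 2 pairs and 1 in 1 pair. MKI67, CCNB1, PLK1, AURKA, BUB1, CENPA, DLGAP5 and PRC1 were among the 25. The changes over both lines ran from -0.38 (CDC25B) to 0.02 (MAD2L1), and M below U in a pair says nothing of the size. The 43 genes share these arrays, and most share a time of transcription in the cell cycle. Counts of them, here and in the other comparisons, are therefore not counts of independent observations.

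**Figure D2:**
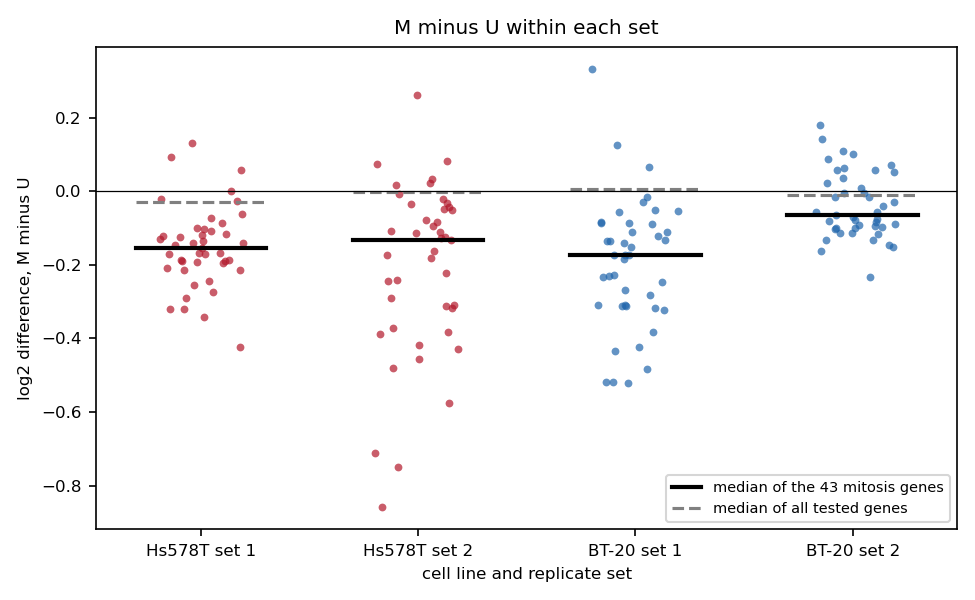
Each point is 1 of the 43 tested genes, at its log2 difference of M minus U (vertical axis) in 1 set of 1 cell line (horizontal axis). The solid bars are the medians of the 43 genes, between -0.17 and -0.06, and the dashed bars those of all tested genes, between -0.03 and 0.01.

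Other lists of cell division genes were set beside the 43. The 22 other spindle and centrosome genes tested had medians of -0.16 in Hs578T and -0.10 in BT-20, with 16 and 18 of 22 below 0, so the Hs578T value was as low as that of the 43. The 25 other kinetochore genes had medians of -0.12 and -0.05 in those lines. The DNA replication genes, 27 tested, had a median M minus U change of -0.08 in both Hs578T and BT-20, with 19 and 23 of 27 below 0, and in set 1 of Hs578T their median was -0.17. The subunits and partners of the anaphase-promoting complex, 14 tested, had medians of 0.02 in Hs578T and -0.03 in BT-20. No gene of these lists was called.

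In Hs578T, 24 of the 43 genes were called lower with the ODNs than with M and U. In this comparison ODN2006 and CTL were joined on one side and M and U of set 2, arrays of the same batch, on the other. These oligonucleotides differ in sequence, length, strandedness, chemistry and CpG content, and joined arrays are not replicate cultures of 1 treatment. All 43 genes had a change below 0, with a median of -0.64, while the median of all 10375 tested genes was -0.06. With limma 24 of the 43 were called lower, where 5.16% of all tested genes were called lower, and 0 were called higher. With arrays centred on housekeeping genes 29 were called lower, and of all genes 941 lower and 329 higher, against 535 lower and 402 higher as deposited. The changes ran from -1.45 (DLGAP5) to -0.12 (BUB3).

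DLGAP5, a spindle protein that stabilises the microtubules at kinetochores, had 9.64 with ODN2006 and 9.92 with CTL, against 10.79 and 11.14 with M and 10.92 and 11.32 with U. PLK1, the polo-like kinase that drives several steps of mitosis, had 8.34 and 8.38 with the ODNs, against 9.30 and 9.32 with M and 9.41 and 9.63 with U. CCNB1 (cyclin B1), the partner of CDK1, had 11.01 and 11.41, against 12.03 and 12.21 with M and 12.16 and 12.32 with U. In these genes both ODN arrays lay below all 4 M and U arrays of Hs578T, of both sets. The levels with the ODNs were 2.73-fold (change -1.45, SE 0.14), 2.16-fold (change -1.11, SE 0.15) and 2.08-fold (change -1.06, SE 0.15) lower than with M and U of set 2, and the adjusted p by limma were 0.0057, 0.015 and 0.015.

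NDC80, the kinetochore protein that binds microtubules, had 10.20 with ODN2006 and 10.31 with CTL, against 11.00 and 11.26 with M and 11.12 and 11.29 with U. CENPA, the histone H3 variant that marks centromeres, had 7.93 and 8.31, against 8.63 and 9.06 with M and 8.80 and 9.17 with U. CCNB2 (cyclin B2) had 10.49 and 10.82, against 11.15 and 11.61 with M and 11.35 and 11.66 with U, and its 2 other probe sets gave no signal. Again the ODN arrays stood below every M and U array of the line. The changes against set 2 were -1.02 (SE 0.11), -0.99 (SE 0.14) and -0.99 (SE 0.14), with adjusted p of 0.0080, 0.017 and 0.015 by limma.

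**Figure D3:**
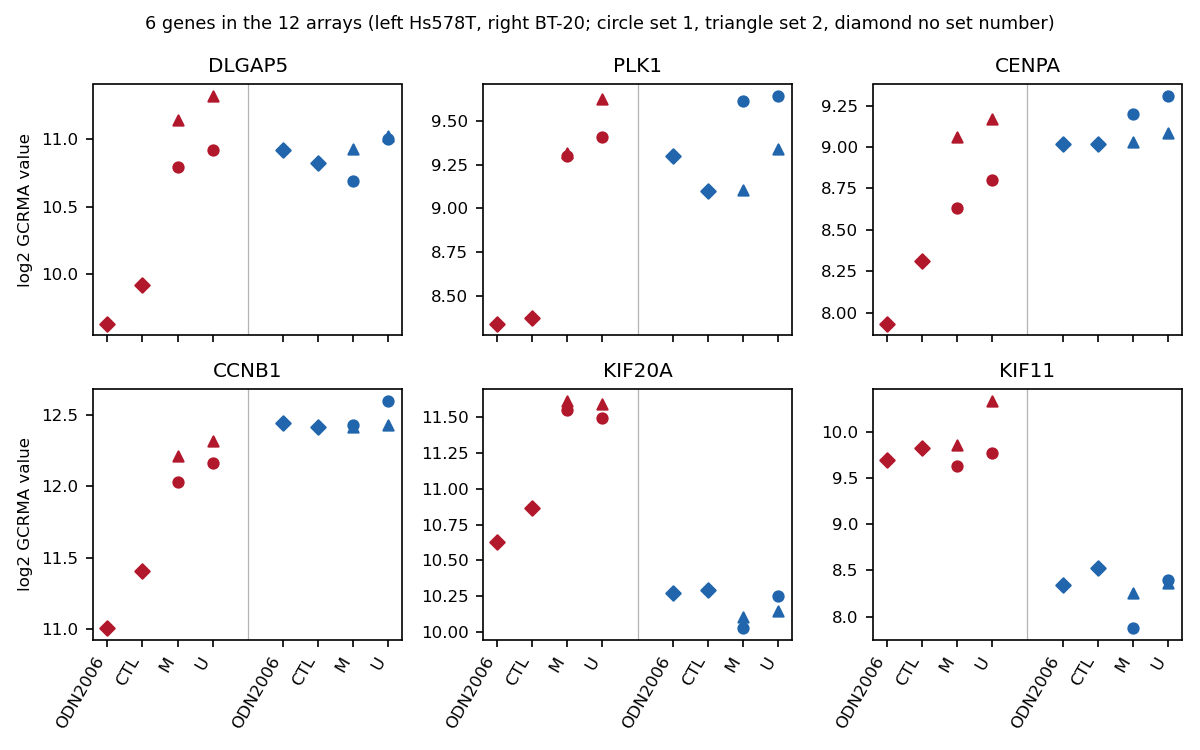
Log2 values of DLGAP5, PLK1, CENPA, CCNB1, KIF20A and KIF11 (vertical axes) in each array by oligonucleotide (horizontal axes), Hs578T in red on the left and BT-20 in blue on the right of each panel. The Hs578T ODN2006 and CTL points lie below the M and U points for the first 5 genes, and KIF11 instead separates the lines.

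By role, both chromosome structure genes were called lower, MKI67 (Ki-67, which coats mitotic chromosomes) with -0.88 and TOP2A (topoisomerase II alpha) with -0.72. All 3 mitotic kinases were called, with AURKA at -0.80 and NEK2 at -0.52 beside PLK1. Of the 3 anaphase genes, CDC20 (the activator of the anaphase-promoting complex) had -0.96, and UBE2C (its ubiquitin-conjugating enzyme) and PTTG1 (securin) had -0.68 each, and all were called. The kinetochore genes had 4 of 6 called, mitotic entry 4 of 7, spindle motors and spindle proteins 4 of 8, and spindle checkpoint 2 of 5, which were BUB1 (-0.94) and TTK (-0.86).

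Cytokinesis genes had a median of -0.41 with 2 of 6 called, and no test set the roles against each other. KIF20A, a kinesin of the dividing cell's midzone, was at 10.63 with ODN2006 and 10.86 with CTL, against 11.55 and 11.62 with M and 11.50 and 11.60 with U, and changed by -0.86. PRC1, which bundles midzone microtubules, changed by -0.58, while ANLN, ECT2 and KIF23 had -0.34, -0.33 and -0.33 and were not called. The passenger complex genes CDCA8, AURKB and BIRC5 had -0.71, -0.64 and -0.30, and none of the 3 was called. FOXM1, the transcription factor of many of these genes, had -0.26, and KIF11, the kinesin that pushes spindle poles apart, had -0.33, neither of them called.

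For 32 of the 43 genes both ODN arrays were below all 4 M and U arrays of Hs578T, where 25.3% of all tested genes were. The 11 others were CCNA2, CDC25B, FOXM1, BUB3, AURKB, BIRC5, CENPF, KIF11, KIF2C, TPX2 and KIF23. The ODN2006 array alone was below the mean of M and U of set 2 in 42 genes (median -0.74) and the CTL array alone in 43 (median -0.55). Against M and U of set 1 the ODN arrays had a median of -0.44, with 39 of 43 below 0. The number called depended on single arrays. Without ODN2006 1 of the 43 was called, with 10 without the M or without the U array of BT-20 and 15 without either ODN array of BT-20, which enter this comparison through its error alone, and 19 to 23 without any other array. In each case 42 or 43 genes were below 0.

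The same comparison in BT-20 gave 0 calls among the 43, where 0% of all genes were called and 534 genes had an unadjusted p under 0.05. The median was 0.02, and 16 of 43 were below 0, or 3 of 43 when arrays were centred on housekeeping genes, which moved all genes by 0.11. In BT-20 DLGAP5 had 10.92 with ODN2006 and 10.82 with CTL, against 10.69 and 10.92 with M and 11.00 and 11.02 with U. PLK1 had 9.30 and 9.10, against 9.61 and 9.11 with M and 9.64 and 9.34 with U. CCNB1 had 12.44 and 12.41, against 12.42 and 12.41 with M and 12.60 and 12.42 with U. The ODN arrays of BT-20 thus lay within or at the edge of the M and U range for these genes. Both ODN arrays were below all 4 M and U arrays for 2 of the 43, where 12.7% of all genes were.

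The difference between the lines was itself tested, a comparison added after the values had been seen. All 43 genes had a more negative change in Hs578T than in BT-20, with a median difference of -0.70. Of all 10375 tested genes 57.3% had, with a median difference of -0.06. An unadjusted p under 0.05 by limma was found for 32 of the 43 and for 1659 of all tested genes. After adjustment 0 of the 43 were called by limma, where 0.0675% of all genes were called lower. Under some other settings, given in the closing section, 1 to 9 were called. The smallest adjusted p were 0.059 for NDC80 (difference -1.11, SE 0.15), 0.065 for DLGAP5 (difference -1.35, SE 0.19) and 0.068 for CDC25C (difference -1.09, SE 0.16).

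**Figure D4:**
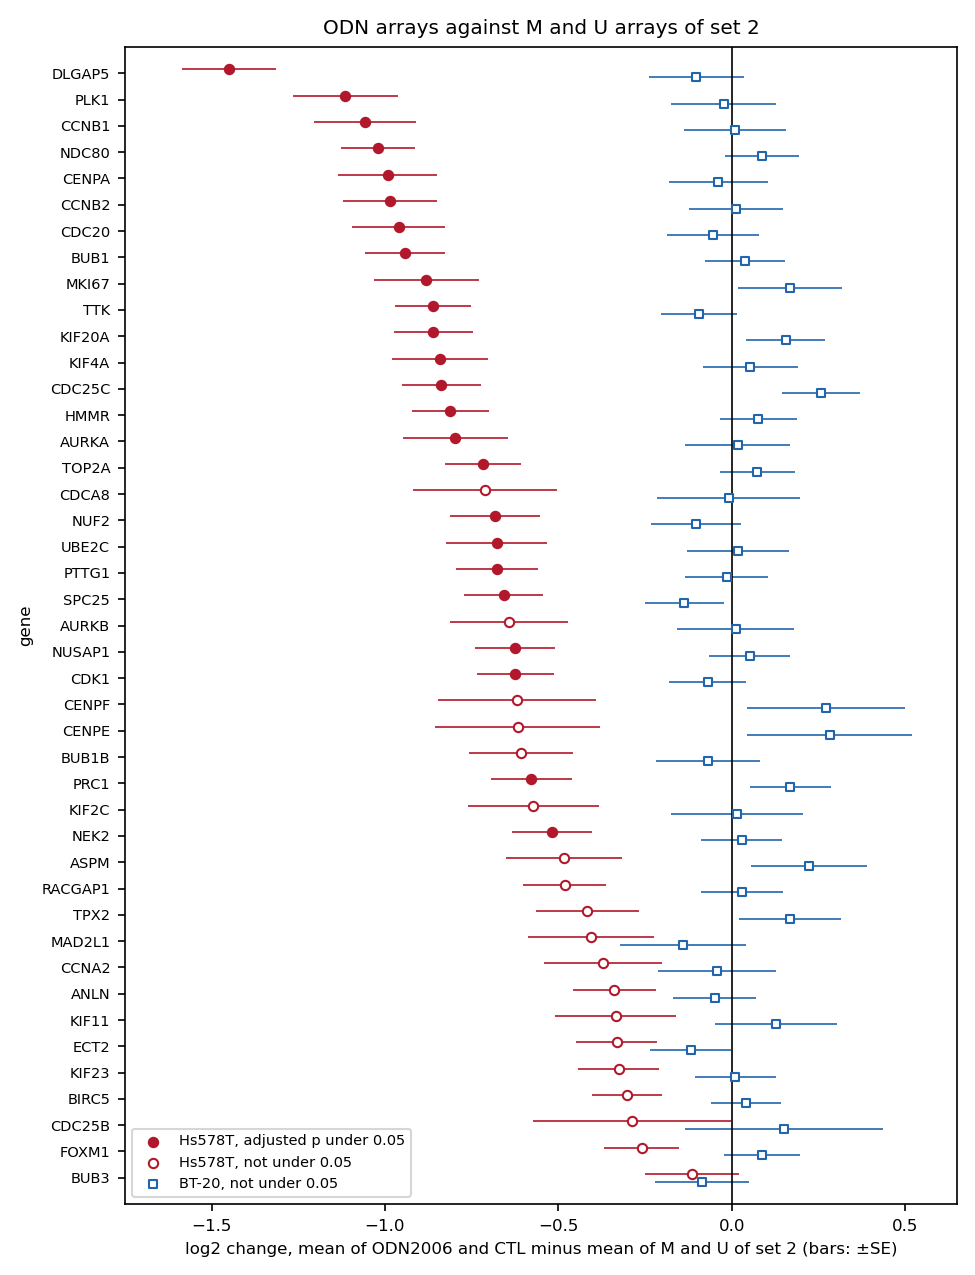
Log2 change of the 43 tested genes (rows) as the mean of ODN2006 and CTL minus the mean of M and U of set 2, with bars of 1 SE. Circles are Hs578T, filled where the adjusted p was under 0.05 (24 genes), and squares are BT-20, whose values lie between -0.14 and 0.28.

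Other lists of cell division genes had medians below 0, but closer to 0 than that of the 43, in the same Hs578T arrays. These were -0.43 for 22 other spindle and centrosome genes (7 called), -0.41 for 22 condensin and cohesin genes (7 called), -0.44 for 27 DNA replication genes (6 called), -0.43 for 14 genes of the G2/M switch and its transcription (2 called) and -0.32 for 25 other kinetochore genes (2 called). All of these calls were lower. HAUS8, an augmin subunit of the spindle, had -1.09 (SE 0.10, adjusted p = 0.0054 by limma), and ESCO2, an acetyltransferase of cohesin, had -1.22 (SE 0.16, adjusted p = 0.014 by limma). The anaphase-promoting complex had a median of -0.09 with 0 of 14 called, although its activator CDC20 and its enzyme UBE2C, counted among the 43, were both called lower.

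ODN2006 set against CTL, each with 1 array per line, asks whether the CpG sites of the single-stranded oligonucleotide mattered. Here 0 of the 43 genes were called, where 0.00948% of all genes were called, 1 of 10543, with the error taken from the M and U replicates because the ODN arrays had none. At an unadjusted p under 0.05 there were 0 of the 43 and 490 of all genes. The median was -0.11 with 35 of 43 below 0, while 64.9% of all genes were below 0, and with housekeeping centring, which moved all genes by 0.14, 14 of 43 were. The lines differed in these values, with a median of -0.20 and 38 of 43 below 0 in Hs578T and a median of -0.02 and 22 of 43 below 0 in BT-20, a difference that was not tested. MAD2L1 was at 11.74 with ODN2006 and 12.05 with CTL in Hs578T, and at 12.04 with ODN2006 and 12.42 with CTL in BT-20 (change -0.35, SE 0.16, adjusted p = 1.00 by limma). CCNA2 was at 9.95 with ODN2006 and 10.42 with CTL in Hs578T, and at 10.44 with ODN2006 and 10.60 with CTL in BT-20 (change -0.32, SE 0.14, adjusted p = 1.00 by limma).

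The sets of M and U arrays differed too. In Hs578T 36 of the 43 genes were higher in set 2 than in set 1, with a median of 0.22, and in BT-20 13 of 43 were, with a median of -0.09. Of all 10410 tested genes 42.2% were higher in set 2 in each line, with medians of -0.05 in Hs578T and -0.04 in BT-20. With any 1 array left out the medians of the 43 genes ran from 0.11 to 0.29 in Hs578T and from -0.18 to 0.03 in BT-20. None of the 43 was called in Hs578T, where 2.74% of all genes were, in BT-20, where 2.5% were, or for the difference between the lines, where 1.28% were. An unadjusted p under 0.05 by limma was found for 8, 5 and 7 of the 43 in those 3 comparisons. Of all 10410 tested genes 1929, 1957 and 1576 had one. KIF4A, a chromosome-bound kinesin, had 9.94 and 10.19 in set 2 and 9.47 and 9.66 in set 1 of Hs578T, M before U (change 0.50, SE 0.13, adjusted p = 0.11 by limma). In Hs578T, whose ODN arrays were compared with set 2 above, the median of the 44 genes was higher in set 2 than in set 1 for the same oligonucleotide, although the M array of set 2 (10.68) was below the U array of set 1 (10.76).

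Between the cell lines the 43 genes differed in both directions, but a smaller share of them was called (65.1%) than of all tested genes (74.6%). Over the 8 M and U arrays 15 were called higher in Hs578T than in BT-20, where 34.4% of all genes were, and 13 were called lower, where 40.2% of all genes were. With housekeeping centring, which moved all genes by -0.17, the counts were 11 higher and 16 lower. The median difference was -0.08 and that of all 10410 tested genes -0.09. Its sign was not stable, since with any 1 array left out the median ran from -0.10 to 0.03, and with housekeeping centring it was -0.25. Without overlap between the 4 Hs578T and the 4 BT-20 arrays there were 14 genes higher, where 33.5% of all genes were, and 13 lower, where 39.9% of all genes were. Leaving out any 1 array gave 26 to 28 calls, of which at least 26 were among these 28.

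KIF11 was at 9.63 and 9.85 with M and 9.77 and 10.33 with U in Hs578T, against 7.88 and 8.26 with M and 8.39 and 8.36 with U in BT-20. KIF20A was at 11.55, 11.62, 11.50 and 11.60 in Hs578T, against 10.03, 10.11, 10.25 and 10.15 in BT-20. CDC25B was at 10.49, 10.35, 10.78 and 11.21 in Hs578T, against 9.43, 9.41, 9.70 and 9.52 in BT-20. Every Hs578T array was above every BT-20 array for these 3 genes. The levels in Hs578T were 3.19-fold (difference 1.67, SE 0.16), 2.70-fold (difference 1.43, SE 0.09) and 2.28-fold (difference 1.19, SE 0.12) those in BT-20, with adjusted p of 8.9e-05, 9.6e-06 and 0.00013 by limma. MKI67 followed with 1.07, BUB3 with 0.84 and PTTG1 with 0.82.

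FOXM1 was at 9.37 and 9.83 with M and 9.56 and 9.75 with U in Hs578T, against 10.64 and 10.54 with M and 10.88 and 10.69 with U in BT-20. AURKA was at 10.96, 11.27, 11.28 and 11.68 in Hs578T, against 12.28, 12.17, 12.45 and 12.27 in BT-20. NEK2, a kinase of the centrosome, was at 10.26, 10.53, 10.47 and 10.61 in Hs578T, against 11.11, 11.32, 11.63 and 11.29 in BT-20. All Hs578T arrays were below all BT-20 arrays for these genes, with differences of -1.06 (SE 0.13), -0.99 (SE 0.13) and -0.87 (SE 0.13) and adjusted p of 0.00033, 0.00047 and 0.00068 by limma. UBE2C, at 11.97 to 12.39 in Hs578T and 12.87 to 13.31 in BT-20, differed by -0.94, NUSAP1, a spindle microtubule protein, by -0.75 and CCNB2 by -0.70. BIRC5 (survivin) was called higher by 0.69. Of its 3 other probe sets with signal, the weakest stood at -0.70 and the others at 0.39 and 0.95. MKI67 kept its direction in its 3 other probe sets, at 0.05 to 0.50.

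The ODN arrays gave other line differences. Over the joined ODN arrays the median of the 43 genes was -0.53 for Hs578T minus BT-20, with 33 below 0, while it was -0.09 in set 1 and 0.15 in set 2. The medians of all tested genes were -0.15 in the ODN arrays, with 55.5% below 0, -0.08 in set 1 and -0.09 in set 2. MKI67 differed by 0.17 in the ODN arrays, against 0.93 in set 1 and 1.22 in set 2, and TOP2A by -0.09, against 0.37 in set 1 and 0.70 in set 2.

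For most of the 43 genes the line difference had the sign of that of their chromosomal neighbours, as it had for most tested genes. For each gene the median difference of up to 20 tested genes on either side in RefSeq order was computed. Across the 43 genes it correlated with their own difference at Pearson's r = 0.74 and Spearman's rho = 0.75, and across 10401 tested genes at 0.31 and 0.43. The 43 differences ran from -1.06 to 1.67 and those of all tested genes from -11.45 to 12.23, so the correlations are not like for like. For the 43 alone, other members were left out of the neighbours. The points share arrays and, where genes lie close together, neighbours, so they are not independent. The sign was that of the neighbours for 32 of 43 genes, and for 67.8% of all tested genes.

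On chromosome 15 all 5 genes, the checkpoint kinase BUB1B, CCNB2, KIF23, NUSAP1 and PRC1, were lower in Hs578T (median -0.66), and the 332 tested genes of that chromosome had a median of -0.70. On chromosome 10 MKI67, BUB3 and KIF11 were higher, with neighbours at 0.98, 0.98 and 0.72, while CDK1 had -0.22 with neighbours at 0.00. On chromosome 20 AURKA and UBE2C stood at -0.99 and -0.94 with neighbours at -1.08 and -0.91. CDC25B of the same chromosome was the widest exception, at 1.19 with neighbours at -0.16. TOP2A, at 0.54 with neighbours at -0.21, also had the opposite sign. So had, among others, NUF2 (0.15, neighbours -0.51), ECT2 (-0.14, neighbours 0.60), CCNB1 (-0.29, neighbours 0.37) and CCNA2 (-0.10, neighbours 0.45). BIRC5 was another, at 0.69 with neighbours at -0.27. Its other probe sets with signal stood at 0.39, 0.95 and -0.70. For CCNA2 the other probe set stood at 0.16, with the sign of its neighbours.

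Promoters are shown because genes of late cell cycle often carry a short element at the transcription start, the cell cycle genes homology region (CHR), with CCAAT boxes upstream. In the RefSeq promoters of GRCh38.p14, 250 bases before to 50 bases after the start, 36 of the 44 genes had an entry. The CHR letters TTTGAA, on either strand, were found in 25 of 36 promoters (69.4%), against 9.9% of 8609 promoters of tested genes and 15.4% of all 27305 promoters. Between 60 bases before the start and the end of the window 21 of 36 had them (58.3%), against 3.02% of tested genes. CCAAT, on either strand, was found in 28 of 36 (77.8%), against 37.5% of tested genes. In the following lines, each the 100 bases before the start of a gene called lower with the ODNs in Hs578T, the capitals mark TTTGAA and CCAAT on either strand.
CCNB2: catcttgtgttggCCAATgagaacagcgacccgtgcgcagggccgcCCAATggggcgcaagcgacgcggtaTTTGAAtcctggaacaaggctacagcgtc
PLK1: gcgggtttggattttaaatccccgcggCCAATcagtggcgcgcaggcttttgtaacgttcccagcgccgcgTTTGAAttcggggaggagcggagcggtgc
CENPA: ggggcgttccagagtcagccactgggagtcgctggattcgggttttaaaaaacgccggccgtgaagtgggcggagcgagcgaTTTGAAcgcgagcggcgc
KIF4A: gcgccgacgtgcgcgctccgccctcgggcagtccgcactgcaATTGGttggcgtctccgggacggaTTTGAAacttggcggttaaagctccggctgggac
HMMR: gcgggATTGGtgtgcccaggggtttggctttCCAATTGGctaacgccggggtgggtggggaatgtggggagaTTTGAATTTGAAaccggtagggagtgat
CCNB1: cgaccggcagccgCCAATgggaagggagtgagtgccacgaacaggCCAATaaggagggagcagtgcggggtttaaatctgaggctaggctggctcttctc
They lie on the plus strand at chr15:59105046-59105145 for CCNB2, chr16:23678789-23678888 for PLK1, chr2:26785956-26786055 for CENPA, chrX:70290004-70290103 for KIF4A, chr5:163460532-163460631 for HMMR, chr5:69167050-69167149 for CCNB1. CCNB2, PLK1, CENPA, KIF4A and HMMR have the CHR close to the start, and HMMR has it in 2 adjoining copies and a CCAAT that overlaps its own complement, while CCNB1 has CCAAT boxes and no TTTGAA in this window.

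Genes with and without the letters TTTGAA were set side by side. The 24 tested genes with TTTGAA in the window had a median change of -0.67 with the ODNs in Hs578T (15 called lower). The 11 without had -0.64 (6 called lower), and the 8 with no promoter entry had -0.45 (3 called lower), where 5.16% of all tested genes were called lower. Only these exact letters in the listed promoter of each gene were read, so the groups need not be genes with and without the element. The ranges were -1.45 to -0.33, -1.06 to -0.29 and -0.86 to -0.12.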

How the data were processed

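Total RNA was hybridised to 1 Affymetrix HG-U133 Plus 2.0 array per culture. The authors deposited 1 log2 value per probe set, made with GCRMA in R 2.4 per the labels, and whether the 12 arrays were normalised together is not given in the sources used here. Precision is limited by how few arrays there are. Of 54675 probe sets, 41097 have 1 gene in the probe table, 1801 several and 11777 none, and only those with 1 gene were used, so genes of other probe sets are unnamed here. Symbols were updated by gene ID to RefSeq GRCh38.p14 (41043 probe sets, 54 kept theirs).

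Genes at 5 or above in at least 2 arrays entered limma 3.58.1 under R 4.3.3, with a mean for each group, eBayes, two-sided tests, a threshold of 0.05 and Benjamini-Hochberg adjustment over every tested gene. Each fit left 4 residual degrees of freedom. Where ODN2006 and CTL were set against each other, the error came from M and U replicates alone; where they were joined, it came from the 2 arrays joined on each side of each line. Whether replicates were separate cultures is known only from the labels, which call them biological replicates. Deviations of M and U arrays of 1 set correlated at 0.60 in Hs578T and 0.60 in BT-20, over 10410 genes that are not independent, but at 0.10 to 0.13 between lines, so set within line was also fitted as a replicate block. The limma step was checked on simulated data. The members, the gene lists and the comparison of ODN with M and U arrays were chosen with earlier results of these data known. All members could be named, with array values for up to 6 called members with the biggest change per direction and comparison, or up to 3 with the smallest p where none was called, and up to 2 genes of each other list by smallest adjusted p. Alternatives were no filter, averaged probe sets, trended robust eBayes, quantile normalisation, housekeeping centring, the block and each array left out.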

Additional observations from a re-analysis of the deposited data

Results flagged for a closer look

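In 4 of 86 groups of M and U arrays of a line, 1 array stood apart from the other 3 by Dixon's test, and chance gives about 5% of such groups. CCNA2 had 10.394 in the set 1 M array of Hs578T, with the other 3 between 10.54 and 10.57. HMMR, which encodes a spindle protein, had 11.785 in the set 1 U array of Hs578T, with the others between 11.60 and 11.62. In the set 1 U array of BT-20, CCNB1 had 12.597, with the others between 12.41 and 12.42, and ASPM had 11.656, with the others between 11.13 and 11.20.

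For KIF20A and BUB3 the sign of M minus U was the same in both sets of a line and opposite in the other line. Signs can fall this way by chance, and the share of all tested genes with this pattern is not given here. Some of the values were close to 0. For set 2, KIF20A had 0.0213 (Hs578T) and -0.0415 (BT-20), while BUB3 had -0.1619 (Hs578T) and 0.0079 (BT-20). M minus U of KIF20A was positive in Hs578T and negative in BT-20, a difference of 0.174, and that of BUB3 was negative in Hs578T and positive in BT-20, a difference of -0.321. The interaction of line and oligonucleotide gave an adjusted p of 1.00 for both by limma.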

How the results depend on the processing

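Among the called members with the biggest changes, up to 6 per direction and comparison, no change reversed under these alternatives. BIRC5, called higher in Hs578T than in BT-20, had other probe sets at 0.39, 0.95 and -0.70. In M against U, 0 genes were called under each alternative run, and with set within line as a replicate block the medians were -0.15 in Hs578T and -0.11 in BT-20. Hs578T against BT-20 gave 15 higher and 14 lower members with the replicate block, and a median of 0.147 within set 2. ODN2006 against CTL gave 150 genes without the filter, 0 with trended robust eBayes, 0 with the 4 ODN arrays alone and 0 to 1 with an array left out. The ODN against M and U comparison in Hs578T gave 1444 genes with trended robust eBayes, 1570 against all 4 M and U arrays, and a median of -0.441 against set 1. With an array left out it gave 50 to 1510 genes and 1 to 23 members, with 50 genes and 1 member without ODN2006 of Hs578T, 166 genes without the M or without the U array of BT-20 in set 2 (10 members each), 249 without ODN2006 of BT-20 and 253 without CTL of BT-20 (15 members each). PLK1, CCNB1, NDC80, CENPA and CCNB2 were not called without ODN2006 of Hs578T, nor CCNB2 with probe sets averaged (-0.26). In BT-20 it gave 4 genes without the filter, 7 against all 4 M and U arrays and 0 to 4 with an array left out, the 4 without CTL. For the line difference it gave 67 genes and 1 member without the filter, 2 members with probe sets averaged, 6 with trended robust eBayes, and with housekeeping centring 78 genes (24 higher and 54 lower, against 21 and 7 as deposited), 9 members and a median of -0.886. With an array left out it gave 1 to 123 genes and 0 to 4 members, among them 1 gene without ODN2006 of Hs578T, 76 genes and 4 members without CTL of Hs578T and 10 genes without ODN2006 of BT-20. Set 2 against set 1 gave 27 to 367 genes in Hs578T, 30 to 419 in BT-20 and 26 to 234 for their difference with an array left out, and after quantile normalisation 95 higher and 149 lower genes in Hs578T, against 71 and 214 as deposited, and 90 and 125 in BT-20, against 69 and 191. With trended robust eBayes PTTG1 was the 1 member called higher in set 2 of BT-20. The causes were not tested.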
